A study of Homo sapiens with 39 samples.

Results

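The HNF4A isoform 9 line was compared with the parental cells it was derived from. Both are HCT116, an established human colorectal cancer line, carrying the Flp-In T-REx system that places a single transgene at a fixed site under a tetracycline-controlled promoter. Libraries were chosen by their titles: 3 of the isoform 9 line and 3 of the parental cells, 6 of the 39 in the series. The isoform 9 line carries isoform 9 of hepatocyte nuclear factor 4 alpha (HNF4A) with GFP joined to its C-terminus, and the parental cells carry no HNF4A construct. Every library came from cells given doxycycline at 2.5 µg/ml for 48 h. Before induction the parental cells were kept in blasticidin (5 µg/ml) and zeocin (100 µg/ml) and the line in blasticidin (5 µg/ml) and hygromycin B (100 µg/ml), and these were withdrawn at induction. No group carried GFP without HNF4A, each isoform is represented by 1 line, and the labels do not say that replicates were separate cultures. The tests therefore measure the spread between these libraries, and the isoform, GFP, the earlier antibiotic and the derivation of the line cannot be told apart. The lines of isoforms 7, 3 and 12, with 3 libraries each and the same handling as the isoform 9 line, served to show where the isoform 9 line differs.

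HNF4A is a nuclear receptor that binds DNA as a homodimer and drives gene programmes of hepatocytes and of the intestinal and colonic epithelium, among them lipid handling, the brush border and plasma protein genes. Its gene has a proximal promoter, P1, and a distal promoter, P2, which give proteins with different N-terminal ends, and alternative splicing near the 3′ end gives different C-terminal ends. Isoform 9 combines the P2 start with the short C-terminus. In the standard nomenclature isoform 7 has the same start and the long C-terminus, isoform 3 has the P1 start and the same short C-terminus, and isoform 12 has the short C-terminus behind a further alternative first exon.

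The annotated reference forms show what isoform 9 shares with isoforms 7 and 3. They were read from the GENCODE transcripts of GRCh38, on the + strand of chromosome 20, and are not the sequence of the constructs. The coding sequence of the isoform 9 form runs from 44355805 to 44424376 and has 395 codons, against 442 in the isoform 7 form and 417 in the isoform 3 form. The first coding exons are shown because they separate the P2 start (isoforms 9 and 7, 49 bases) from the P1 start (isoform 3, 115 bases).
P2 start, isoforms 9 and 7: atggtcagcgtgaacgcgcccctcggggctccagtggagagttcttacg
P1 start, isoform 3: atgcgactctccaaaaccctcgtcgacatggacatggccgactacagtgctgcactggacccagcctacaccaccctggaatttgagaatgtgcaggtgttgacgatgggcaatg

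The isoform 9 and isoform 7 forms have the first 1064 coding bases in common and part near the 3′ end of the coding sequence. The next stretches are shown because they are where the coding sequences of the 2 reference forms differ. The last 12 shared bases are in lower case, and the capitals mark what differs: all 121 bases left in isoform 9, and the first 90 of 262 in isoform 7.
Isoform 9 tail: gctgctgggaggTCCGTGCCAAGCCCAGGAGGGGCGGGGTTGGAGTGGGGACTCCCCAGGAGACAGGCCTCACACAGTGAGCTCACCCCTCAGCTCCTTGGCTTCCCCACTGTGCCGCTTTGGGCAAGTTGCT
Isoform 7 tail, first part: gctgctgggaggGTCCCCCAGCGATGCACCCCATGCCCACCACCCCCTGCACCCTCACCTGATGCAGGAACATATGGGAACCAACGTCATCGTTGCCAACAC

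HNF4A mRNA followed the label of the line. Values are TPM, a length-corrected share of a library's mRNA scaled to the same total in every library. Summed over the 12 HNF4A rows of the table, HNF4A was at 31.9, 30.8 and 31.7 TPM in parental cells and at 807.8, 973.9 and 1063 TPM in the isoform 9 line. The mean rose 30.1-fold, from 31.5 TPM ± 0.59 to 948.4 TPM ± 129.7 (SD, n = 3 each), the second highest of the 12 lines. In the isoform 9 line 99.8% of this signal stood in the row of isoform 9. In the parental cells 88.8% stood in the row of isoform 12, at 27.8, 27.3 and 28.7 TPM, whereas that row was at 0.153, 0.667 and 0.504 TPM in the isoform 9 line. The assignment of reads between nearly identical HNF4A rows is uncertain, and the HNF4A rows were left out of all tests. The lines set beside it had less HNF4A: 732.6 TPM ± 35.5 for isoform 7, 670.7 TPM ± 230.5 for isoform 3 and 677.7 TPM ± 42.4 for isoform 12 (SD, n = 3 each). In isoform 3 the 3 libraries did not agree, with 406.95 TPM in replicate 1 and 833.5 and 771.8 TPM in the others.

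The 6 libraries had 28162 to 30549 genes above 0 TPM, and read depth is unknown from TPM. Markers of an epithelial identity all reached 1 TPM in at least 1 of the 6 libraries, although VIL1 was below 1 TPM in every parental library. They summed to 3322 to 3466 TPM in the parental cells and 3374 to 3798 TPM in the isoform 9 line. Of the markers of other cell types, 7 of 10 for fibroblasts, 8 of 10 for blood, 7 of 8 for endothelium and 4 of 8 for neural cells stayed below 1 TPM in all 6 libraries. Their sums overlapped between the groups for fibroblasts (25.9 to 28.8 TPM in parental cells, 23.8 to 28.7 TPM in isoform 9), for blood (4.19 to 6.09 and 3.97 to 4.27 TPM) and for endothelium (3.14 to 3.6 and 2.57 to 3.21 TPM). The neural sum was 46 to 48.5 TPM in parental cells and 36.4 to 43.2 TPM in isoform 9, without overlap, and its part in other results was not tested. In bulk RNA, fewer cells with a transcript and less of it per cell cannot be told apart.

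Of 15002 genes that averaged 1 TPM or more across the series, 123 (0.82%) were called in the isoform 9 line relative to the parental cells. A call required a limma adjusted p under 0.05 and a difference of at least 1 on the log2(TPM + 1) scale, a scale on which the change of low genes is understated. The line was higher in 57 (0.38%) and lower in 66 (0.44%). At the adjusted p alone 3404 genes (22.7%) passed, 1631 higher (10.9%) and 1773 lower (11.8%); "rose" and "fell" are used below for genes that passed at least this. Of the called genes 97 are protein-coding, 41 higher and 56 lower. The 3 libraries of the line and the 3 parental libraries did not overlap for 122 of the 123 called genes, against 32.5% of all genes tested. The excess of lower calls depended on the processing: with genes of at least 5 TPM only, 46 were called higher and 28 lower, and after median-of-ratios scaling 61 higher and 57 lower. With a pseudocount of 0.1 TPM, which gives more weight to low genes, 99 were higher and 154 lower. Many called genes were low: 17 were below 1 TPM in the parental cells and 25 in the isoform 9 line, as the plot of all tested genes shows.

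**Figure D1:**
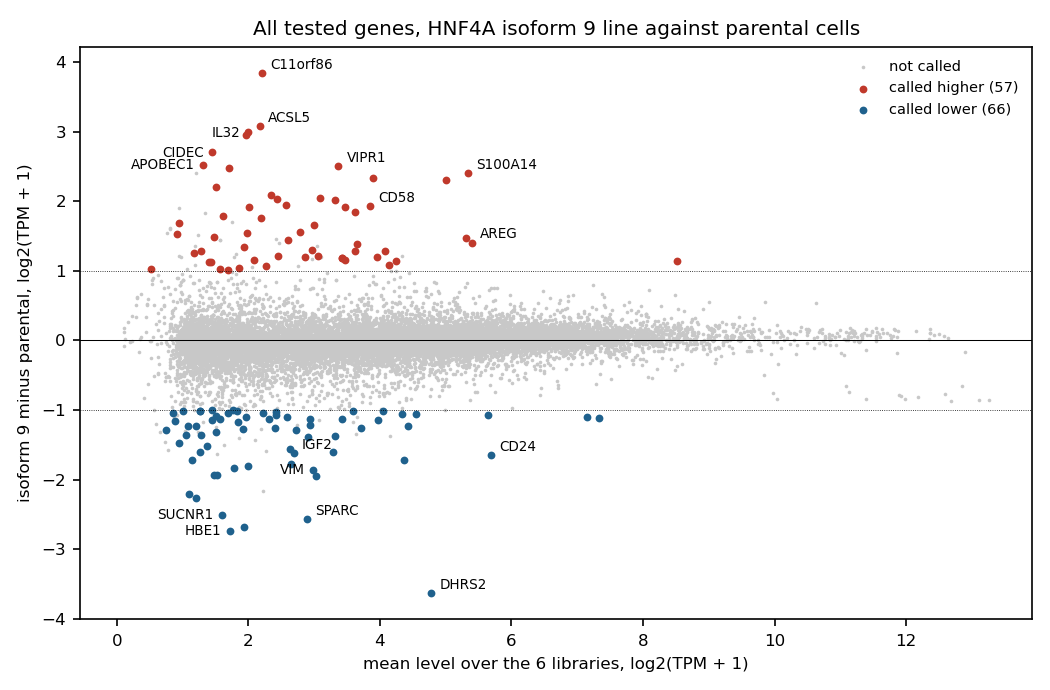
Difference between the isoform 9 line and the parental cells (vertical axis, log2(TPM + 1)) against the mean level over the 6 libraries (horizontal axis, log2(TPM + 1)) for the 15002 tested genes. Red points are the 57 genes called higher, blue points the 66 called lower, and dotted lines mark a difference of 1 in either direction.

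Among protein-coding genes the largest rise was in C11orf86, followed by ACSL5, IL32, CIDEC and APOBEC1. C11orf86 was at 0.3, 0.139 and 0.213 TPM in the parental cells and at 17.6, 15.8 and 16 TPM in the isoform 9 line. ACSL5, which activates long-chain fatty acids to their CoA esters, was at 0.526, 0.64 and 0.485 TPM and at 11.2, 12.5 and 12.9 TPM. CIDEC, a lipid droplet protein, was at 0.0344, 0.125 and 0.0643 TPM and at 5.53, 6.89 and 5.62 TPM. All 3 genes were near silent in the parental cells, and no isoform 9 library came near a parental one. The log2 differences were 3.84 ± 0.14 (SE) for C11orf86, 3.09 ± 0.11 for ACSL5 and 2.70 ± 0.13 for CIDEC, with adjusted p of 2.3e-18, 1.3e-18 and 1.0e-15 (limma).

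APOBEC1, the cytidine deaminase that edits APOB mRNA in the small intestine, was at 0, 0.121 and 0 TPM in parental cells and at 4.77, 4.77 and 5.34 TPM in the isoform 9 line. IL32, a cytokine, was at 0.446, 0.524 and 0.304 TPM and at 10.5, 10.3 and 10.1 TPM. Both went from near 0 to a low level that was even across the libraries, with log2 differences of 2.52 ± 0.19 and 2.99 ± 0.15 (SE; adjusted p of 1.7e-11 and 7.0e-15, limma).

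Among the 44 genes called higher that could be searched, APOBEC1 was the only one with an exact match to an HNF4-type word just before its start. The 250 bases before the annotated start, from RefSeq on GRCh38.p14, were searched on both strands for CAAAGTCCA, which HNF4A is known to prefer, and for CAAAGGTCA, which other receptors of its kind also bind. Of the 57 genes called higher 44 had an entry, and 1 held either word (2.27%). Of the 66 called lower 36 had an entry, and 1, STRA6, a membrane receptor for the retinol carrier, held either word (2.78%). Among all genes tested the share was 0.451% (47 of 10422). With 1 gene in each direction the shares cannot be compared. The stretches around both matches are shown, 5′ to 3′ on the strand of the gene, with the match in capitals. That of APOBEC1 is chr12:7665909-7665976 on the minus strand and that of STRA6 is chr15:74212260-74212321 on the minus strand.
APOBEC1: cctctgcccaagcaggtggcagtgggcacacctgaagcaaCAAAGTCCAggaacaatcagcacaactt
STRA6: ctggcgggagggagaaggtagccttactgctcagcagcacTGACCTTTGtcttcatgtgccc
The APOBEC1 match starts 28 bases before the annotated start and lies on the strand of the gene, and the STRA6 match starts 22 bases before it and reads CAAAGGTCA on the opposite strand. STRA6 fell by 1.13 on the log2(TPM + 1) scale.

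Further rises were in genes already present in the parental cells. VIPR1, the receptor for vasoactive intestinal peptide, went from 3.46, 3.01 and 3.52 TPM to 22.7, 20.1 and 29 TPM. S100A14, a calcium-binding protein of epithelia, went from 15.2, 17.3 and 17.2 TPM to 88.4, 93 and 95.2 TPM. SELENOP, a carrier of selenium in plasma, went from 5.29, 5.48 and 6.17 TPM to 25.5, 30.5 and 43.3 TPM. The isoform 9 libraries lay above all parental libraries for each, and SELENOP varied most between them. The log2 differences were 2.51 ± 0.16 for VIPR1, 2.41 ± 0.11 for S100A14 and 2.33 ± 0.20 for SELENOP (SE; largest adjusted p 2.4e-10, limma). DHRS3, which reduces retinal, rose by 2.30 ± 0.15, and ABCG2, an apical efflux transporter, by 1.95 ± 0.11. CD58, the ligand of the T cell receptor CD2, rose by 1.93 ± 0.13, from a mean of 6.35 TPM to 27.1 TPM. MYO15B, an unconventional myosin, rose by 2.04 ± 0.16. TRIM10 and TRIM15, neighbours on chromosome 6 (30151945 to 30160934 and 30163206 to 30172696, GENCODE on GRCh38), rose by 2.09 ± 0.12 and 2.04 ± 0.12.

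The largest fall was in DHRS2, a dehydrogenase of the family that also holds DHRS3. It was at 83.9, 99.3 and 106 TPM in parental cells and at 6.88, 5.99 and 7.68 TPM in the isoform 9 line, a log2 difference of -3.63 ± 0.41 (SE; adjusted p 5.6e-08, limma). SPARC, a matricellular protein, went from 15, 16.3 and 20.4 TPM to 1.49, 2.02 and 2.78 TPM. VIM, the intermediate filament protein of mesenchymal cells, went from 13.8, 14.6 and 13.9 TPM to 2.96, 3.39 and 3.06 TPM. Neither gene had overlapping groups, and the log2 differences were -2.56 ± 0.34 and -1.87 ± 0.22 (SE; adjusted p 1.0e-06 and 1.3e-07, limma).

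A run of neighbouring genes fell at the beta-globin locus. HBE1, the embryonic globin, was at 5.31, 8.92 and 8.81 TPM in parental cells and at 0.289, 0.262 and 0.263 TPM in the isoform 9 line. OR51B5, an olfactory receptor gene, went from 3.87, 3.98 and 4.23 TPM to 0.0717, 0.0792 and 0 TPM, and its neighbour OR51B4 from 1.26, 1.58 and 2.07 TPM to 0.0567, 0.171 and 0 TPM. For these 3 genes the isoform 9 line had the lowest mean of the 12 lines, and for HBE1 the highest line, isoform 4, reached 43.8 TPM. The log2 differences were -2.74 ± 0.18, -2.26 ± 0.16 and -1.29 ± 0.15 (SE; largest adjusted p 1.4e-07, limma). The fall was not particular to isoform 9. HBE1 and OR51B5 were also called lower in isoform 7 than in the parental cells (-2.15 and -1.58), at means of 0.91 and 0.693 TPM. Isoform 9 differed from isoform 7 by -0.59 and -0.68 for these 2 genes, which was not called. In the GENCODE annotation HBE1 (chromosome 11, 5268345 to 5505652) and OR51B5 (5303444 to 5505652) overlap on the minus strand and OR51B4 (5301014 to 5301946) lies inside HBE1. Reads of the 3 genes may thus not be separable.

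The imprinted neighbours IGF2 and H19, on the same chromosome, fell too. IGF2, a growth factor, went from 11, 10.3 and 9.73 TPM to 2.39, 2.6 and 3.08 TPM, and H19, a non-coding RNA, from 11.7, 10.8 and 10.9 TPM to 3.65, 3.6 and 3.73 TPM. No library of one group reached into the other, and the log2 differences were -1.62 ± 0.09 and -1.38 ± 0.15 (SE; adjusted p 1.5e-14 and 2.2e-08, limma). SUCNR1, the succinate receptor, on chromosome 3 (151873643 to 151884619), also fell. It went from 6.01, 6.25 and 6.44 TPM to 0.175, 0.211 and 0.458 TPM. All isoform 9 libraries lay far below the parental ones, with a log2 difference of -2.50 ± 0.15 (SE; adjusted p 1.8e-13, limma).

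PDGFC and CD24 were also among the large falls. PDGFC, a platelet-derived growth factor, went from 10.2, 11.6 and 10.3 TPM to 2.11, 2.44 and 2.68 TPM. CD24, a surface glycoprotein, went from 93.4, 95.5 and 82.9 TPM to 23.6, 28 and 33.9 TPM. Neither had overlapping groups, with log2 differences of -1.78 ± 0.12 and -1.65 ± 0.09 (SE; largest adjusted p 1.1e-12, limma). RANBP3L (-1.93 ± 0.21), TNS4, a focal adhesion protein (-1.83 ± 0.18), and PPP1R1B, an inhibitor of protein phosphatase (-1.80 ± 0.23), were also among the protein-coding genes with the largest falls. In the plot by library, the points of the 2 groups are apart for every gene shown.

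**Figure D2:**
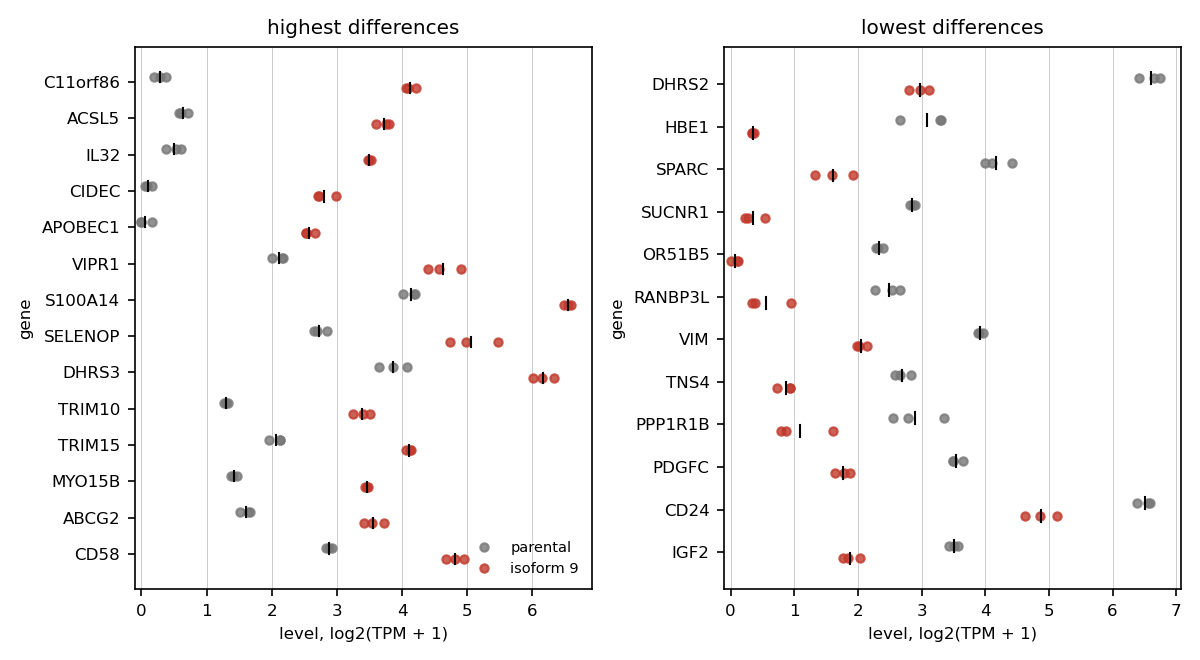
Levels (horizontal axis, log2(TPM + 1)) of the 14 protein-coding genes with the largest rises (left) and of 12 of the 14 with the largest falls (right), 1 point per library, grey for parental cells and red for the isoform 9 line, with a tick at each mean. The points of the 2 groups do not overlap for any gene shown.

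The other 26 called genes are non-coding, pseudogenes or of no recorded type. Of these AQP7P3, a pseudogene of an aquaglyceroporin, rose by 2.47 ± 0.19 (SE), from a mean of 0.4 TPM to 6.77 TPM, and reads of it may belong to its parent gene. Rows of short RNAs, RNY3P1, RNY1P13 and TRNV, also had large differences, on uneven values: RNY3P1 was at 15.4, 9.62 and 6.38 TPM in the line and at 0, 1.77 and 0 TPM in parental cells. The calls of RNY3P1 and RNY1P13 were lost under 6 and 7 alternative settings, among them a pseudocount of 0.1 TPM and leaving out isoform 9 replicate 1 or 2 or parental replicate 1 or 3, with adjusted p up to 0.082 and 0.182 (limma).

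The 28 gene lists were described by counts and medians. They hold 455 tested genes, of which 22 were called, 12 higher and 10 lower. Among all genes tested 123 of 15002 (0.82%) were called. The lists were chosen with earlier results of these data known, so a larger share of calls in them is not an independent result. The median log2 difference of all 15002 tested genes was -0.00, and a list's share of rises and falls is read against the 10.9% and 11.8% of all genes tested. These shares move with the processing: median-of-ratios scaling gave 2529 rises and 1505 falls, TPM rescaled without mitochondrial rows 1267 and 2668, and a fit of the 6 libraries alone 746 and 856. In that last fit most list counts were lower too.

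The list of known HNF4A targets, mostly plasma protein and gut genes, has 21 members, of which 5 were expressed enough to be tested. VIL1, the actin bundler of microvilli, was called: it went from 0.482, 0.683 and 0.497 TPM to 2.43, 2.51 and 3.54 TPM, a log2 difference of 1.29 ± 0.17 (SE; adjusted p 6.0e-07, limma). LGALS4, a galectin of the gut, rose by 0.60 and F10, coagulation factor X, fell by 0.50; both were named after their values were seen. Brush border and microvillus genes rose in 10 of 18 and fell in 1, with a median of 0.31. Next to VIL1 the risers included parts of the actin cytoskeleton that many epithelia share, such as EZR, the linker ezrin (396 to 494 TPM), EPS8 (22.7 to 37.2 TPM) and MISP (10.5 to 19.1 TPM), again named after their values were seen. DPP4, an enterocyte peptidase, fell by 0.41.

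Genes of cholesterol synthesis and uptake rose in 17 of 24 and fell in none, all by less than 2-fold, with a median of 0.27. FDFT1, squalene synthase, was at 376, 405 and 376 TPM in parental cells and at 448, 514 and 478 TPM in the isoform 9 line. FDPS, which makes farnesyl diphosphate, was at 263, 274 and 256 TPM and at 298, 347 and 315 TPM. Neither gene had overlapping groups, and the log2 differences were 0.31 ± 0.05 and 0.27 ± 0.05 (SE; adjusted p 4.3e-05 and 0.00017, limma). The number of risers was 18 of 24 after median-of-ratios scaling and 12 of 24 when only the 6 libraries were fitted. Fatty acid oxidation genes rose in 8 of 21 and fell in none (median 0.14), among them ETFB and ETFA, the subunits of the electron transfer flavoprotein, by 0.44 ± 0.04 and 0.25 ± 0.05 (SE). The risers numbered 12 without isoform 9 replicate 1 and 5 with the 6 libraries fitted alone. Of the lipid droplet and acyl-CoA list, ACSL5 and CIDEC were called, and 5 of 21 rose and 4 fell. The risers numbered 7 without isoform 9 replicate 1 and 3 without isoform 9 replicate 2 or 3 or parental replicate 1 or 3.

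Of the 13 tested EGF ligands and ERBB receptors 5 rose and 1 fell, with a median of -0.00, and the 2 ligands AREG and EREG were called higher. AREG, amphiregulin, went from 26.1, 26 and 22.6 TPM to 67.1, 69.9 and 65.9 TPM, and EREG, epiregulin, from 6.76, 7.08 and 6.51 TPM to 18.7, 19.2 and 19.8 TPM. The groups were wide apart for both, with log2 differences of 1.41 ± 0.10 and 1.38 ± 0.10 (SE; adjusted p 5.5e-12 and 1.1e-11, limma). Both lie on chromosome 4, at 74445134 to 74455009 (AREG) and 74365143 to 74388751 (EREG). NRG1, a ligand of ERBB3, was the member that fell (20.4 to 12.2 TPM). Without isoform 9 replicate 3, 3 of the 13 rose and 2 fell.

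Of the FGF signalling genes 10 of 18 fell and none rose, with a median of -0.22. FGF19, an endocrine FGF of the gut, went from 9.47, 9.29 and 9.34 TPM to 2.38, 3.77 and 3.77 TPM. FGF13, an intracellular member of the family, went from 2.35, 2.38 and 2.3 TPM to 0.192, 0.323 and 0.393 TPM, and FGFBP1, which releases FGFs from the matrix, from 31.5, 36.9 and 30 TPM to 16.2, 17.6 and 12.3 TPM. For each gene all isoform 9 libraries lay below all parental ones, and the falls were by 1.29 ± 0.10, 1.36 ± 0.13 and 1.05 ± 0.22 (SE; adjusted p 5.5e-11, 2.7e-09 and 0.00056, limma). FGFBP1 was not called without isoform 9 replicate 3 (-0.91) or without parental replicate 2 (-0.97). Among the other members DUSP6, a feedback phosphatase of the pathway named after its values were seen, fell by 0.97 (88.9 to 45.3 TPM). Among the 18, 7 fell without isoform 9 replicate 1.

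Wnt target genes fell in 8 of 15 and rose in 1 (median -0.24). NOTUM, a secreted Wnt deacylase, went from 16.2, 15.9 and 15.9 TPM to 3.93, 5.09 and 4.74 TPM. AXIN2, a feedback inhibitor, went from 2.69, 2.15 and 2.46 TPM to 0.716, 0.712 and 0.674 TPM. The log2 differences were -1.61 ± 0.09 and -1.01 ± 0.10 (SE; adjusted p 1.3e-13 and 8.7e-09, limma), that of AXIN2 so close to 1 that the call was lost after median-of-ratios scaling (-0.98) and without isoform 9 replicate 3 (-0.999) or parental replicate 1 (-0.96). Wnt targets fell in 12 of 15 with TPM rescaled without mitochondrial rows and in 4 of the 10 with at least 5 TPM. Of the gut and liver transcription factors 7 of 19 fell, among them HES1 by 0.37 ± 0.08, and 1 rose; without isoform 9 replicate 1, 4 fell.

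Genes of a mesenchymal state fell in 7 of 12 and rose in 1 (median -0.33), and VIM was the one called. Epithelial keratins and junction genes rose in 9 of 29 and fell in 4 (median 0.11), with no call; 5 rose and 2 fell with the 6 libraries fitted alone, and 2 fell without isoform 9 replicate 1 or parental replicate 2 or 3. KRT8 was at 1326 TPM in parental cells and 1264 TPM in isoform 9, a difference that did not pass (adjusted p 0.29, limma). Class 3 semaphorins, guidance ligands, moved in both directions. SEMA3B went from 4.57, 4.65 and 4.85 TPM to 23.8, 18.6 and 19.6 TPM and SEMA3C from 6.08, 6.57 and 6.55 TPM to 12.5, 15.4 and 19.1 TPM, while 2 of the 9 tested members of the list fell. Of the caveolae list CAVIN2 fell by 1.56 ± 0.17, whereas CAV1, the main caveolin, rose by 0.73 ± 0.07 (SE), to 333, 355 and 362 TPM from 214, 214 and 204 TPM, its highest mean among the 12 lines.

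Interferon-stimulated genes fell in 13 of 26 and rose in 2 (median -0.23). OAS1, an antiviral sensor, was 1 of the 2 that rose and the only member called. It went from 3.65, 4.24 and 4.13 TPM to 10.1, 11.3 and 12.5 TPM, a log2 difference of 1.30 ± 0.11 (SE, adjusted p 1.6e-10, limma). Of the NF-kB list 7 of 14 fell, among them TNFAIP2 by 1.15 ± 0.07, and 2 rose, among them IL32; without parental replicate 2, 4 fell. MHC class I presentation genes fell in 5 of 14, and B2M, its common light chain, was at 237 TPM in parental cells and 250 TPM in isoform 9 (adjusted p 0.58, limma). With only the 6 libraries fitted, 8 of 26 interferon genes and 2 of 14 MHC class I genes fell, whereas 8 of the latter fell with TPM rescaled without mitochondrial rows.

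Drug and retinoid metabolism held calls in both directions. SULT2B1, a sulfotransferase of sterols, went from 5, 6.22 and 5.37 TPM to 21.6, 22.1 and 23.9 TPM, and CYP1A1, a target of the aryl hydrocarbon receptor, from 2.34, 2.69 and 2.01 TPM to 5.51, 7.32 and 5.35 TPM. With DHRS3 these rose, by 1.85 ± 0.15 and 1.07 ± 0.15 (SE), while DHRS2 fell; of the 21 tested members 10 rose and 4 fell. CYP1A1 was not called without isoform 9 replicate 2 (0.95) or without parental replicate 3 (0.996). In the proliferation lists few genes passed: of 25 mitosis genes none passed the adjusted p, and of 25 S phase genes 3 fell. With TPM rescaled without mitochondrial rows 6 and 8 of them fell, and of the S phase genes 1 fell without isoform 9 replicate 3. ER chaperones fell in 8 of 17, all by less than 0.4 on the log2 scale, in 4 of 17 without isoform 9 replicate 1 or without parental replicate 2, and in 3 with the 6 libraries fitted alone. Of the p53 targets 7 of 24 fell and 1 rose, and the falls numbered 4 without isoform 9 replicate 1 and 11 with TPM rescaled without mitochondrial rows. Of the metallothionein list 1 of 8 rose.

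**Figure D3:**
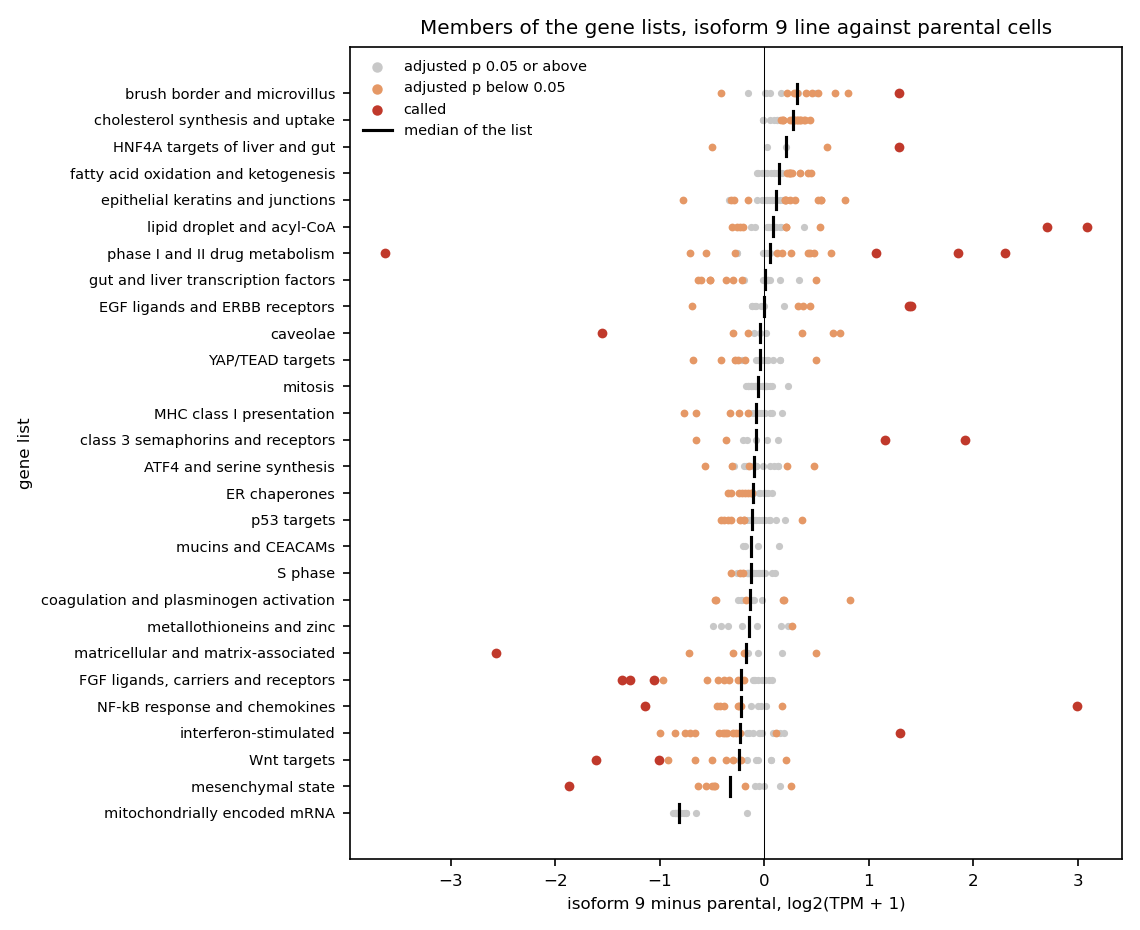
Differences between the isoform 9 line and the parental cells (horizontal axis, log2(TPM + 1)) for the tested members of 28 gene lists, 1 row per list and 1 point per gene, with the list's median as a black bar. Red points were called, orange points passed an adjusted p of 0.05 without the minimum difference, and grey points did not; cholesterol synthesis lies to the right of 0 nearly throughout, and FGF, Wnt and mesenchymal genes mostly to the left.

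Mitochondrially encoded mRNA set the isoform 9 libraries apart from each other. Its 13 mRNAs made up 9.45%, 7.57% and 8.62% of TPM in the parental libraries and 10%, 4.51% and 3.05% in isoform 9 replicates 1, 2 and 3. The first of these was above and the last below all 33 libraries of the other lines, which ranged from 3.42% to 9.77%. All 13 log2 differences were negative, from -0.87 to -0.17, but none passed the adjusted p (0.0514 at the lowest, limma), although 12 had an unadjusted p under 0.05. COX1, for example, was at 6003, 4771 and 5493 TPM in parental cells and at 6038, 2626 and 1702 TPM in the isoform 9 line. Without isoform 9 replicate 1, 12 of the 13 were called lower, which raised the list genes called from 22 to 34. Since TPM shares a fixed total, this moves the values of all other genes: with TPM rescaled without the mitochondrial rows the median of all genes was -0.05, 57 were called higher and 80 lower, and all 123 called genes stayed called. This rescaling was chosen after the data were seen.

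**Figure D4:**
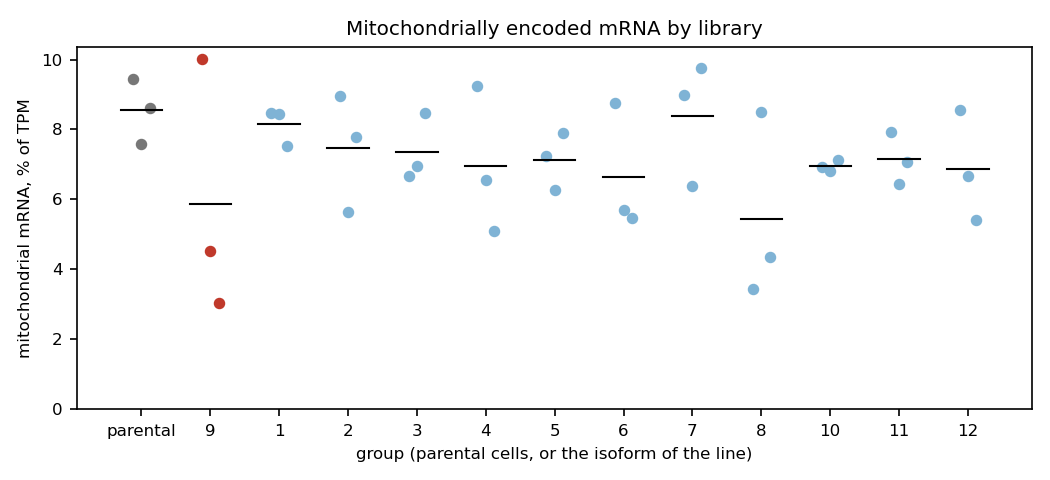
Share of TPM in the 13 mitochondrially encoded mRNAs (vertical axis, %) in each library, 1 point per library and a bar at each group's mean. The 3 isoform 9 libraries (red) span 3.05% to 10%, wider than any other group.

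The comparison with isoform 7 sets isoform 9 beside a form with the same P2 start and the long C-terminus. It cannot tell the C-terminus from the derivation of the line or the amount of HNF4A mRNA. In it 63 genes (0.42%) were called, 12 higher in isoform 9 (0.08%) and 51 lower (0.34%). At the adjusted p alone the split was the reverse, with 1614 higher (10.8%) and 703 lower (4.69%), while the median of all genes was 0.06. Many of the genes with the largest rises against the parental cells were lower in isoform 9 than in isoform 7. ACSL5 was at 65.2, 60.6 and 66.2 TPM in the isoform 7 libraries, a log2 difference of -2.30 ± 0.11 (SE; adjusted p 9.2e-16, limma) for isoform 9. C11orf86, IL32, CIDEC, APOBEC1 and S100A14 were likewise called lower, by 1.49 ± 0.14, 1.95 ± 0.15, 1.87 ± 0.13, 1.53 ± 0.19 and 1.71 ± 0.11 on the log2 scale. Of the 57 genes called higher against the parental cells, 13 were called lower and 2 higher than in isoform 7, with a median of -0.33; both comparisons use the same isoform 9 libraries.

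The protein-coding genes furthest below isoform 7 were CYP11A1, ANPEP and HPD. CYP11A1, the side-chain cleavage enzyme of steroid synthesis, was at 8.05, 4.98 and 5.9 TPM in isoform 7, at 0.0769, 0.13 and 0.0871 TPM in isoform 9 and at 0.0852, 0.0495 and 0.124 TPM in parental cells. ANPEP, an aminopeptidase of the brush border, was at 8.76, 8.01 and 8.62 TPM in isoform 7, at 0.473, 0.66 and 0.838 TPM in isoform 9 and at 0.181, 0.119 and 0.174 TPM in parental cells. HPD, an enzyme of tyrosine breakdown, was at 25.8, 23.4 and 25.4 TPM, at 3.06, 3.64 and 4.32 TPM and at 0.767, 0.612 and 0.605 TPM. For each gene the lowest isoform 7 library lay several-fold above the highest isoform 9 library, with log2 differences of -2.71 ± 0.10, -2.52 ± 0.10 and -2.48 ± 0.11 (SE; largest adjusted p 1.7e-16, limma). Isoform 7 was the highest of the 12 lines for these 3 genes. Against the parental cells isoform 9 did not pass for CYP11A1 (0.02 ± 0.10; adjusted p 0.94, limma), while ANPEP rose by 0.51 ± 0.10 and HPD by 1.49 ± 0.11 (SE).

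The reverse was seen for PLIN2, a coat protein of lipid droplets. It was at 10.5, 9.85 and 7.68 TPM in isoform 7 and at 29.5, 30.8 and 29.4 TPM in isoform 9, close to 31.7, 33.1 and 30.7 TPM in parental cells. MARCKS, an actin-binding substrate of protein kinase C, was at 24, 22.5 and 19.7 TPM in isoform 7 and at 51.7, 56.5 and 62.2 TPM in isoform 9. Isoform 9 was higher in every library, by 1.59 ± 0.06 and 1.33 ± 0.07 (SE; adjusted p 2.1e-17 and 2.4e-14, limma). SPARC was lower still in isoform 7 (0.279, 0.188 and 0.243 TPM) than in isoform 9, a difference of 1.31 ± 0.34 that did not pass without isoform 9 replicate 3 (adjusted p 0.0544). Of the 66 genes called lower against the parental cells, 15 passed the adjusted p as higher than in isoform 7, 5 as lower and 46 did not pass, where 15.4% of all genes passed in either direction. For TNS4 the difference was -0.02 ± 0.18 (SE).

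The comparison with isoform 3 sets isoform 9 beside a form with the P1 start and the same short C-terminus. It cannot tell the start from the derivation of the line or the amount of HNF4A mRNA. In it 84 genes (0.56%) were called, 19 higher in isoform 9 (0.127%) and 65 lower (0.433%). At the adjusted p alone 9.53% of all genes were higher and 9.21% lower. Without isoform 3 replicate 1, the library with less HNF4A, 110 were called, 20 higher and 90 lower. VIL1, CIDEB and CLRN3 were higher in isoform 3. VIL1 was at 9.91, 20.7 and 23.4 TPM in isoform 3, against 2.43, 2.51 and 3.54 TPM in isoform 9. CIDEB, a lipid droplet protein of liver, was at 13.7, 32.3 and 30.6 TPM, against 3.35, 2.83 and 3.64 TPM. CLRN3, a tetraspan membrane protein, was at 6.06, 15.3 and 15.1 TPM, against 0.522, 1.1 and 1.27 TPM. Replicate 1 was the lowest isoform 3 library for all 3 genes and still lay above every isoform 9 library. The log2 differences were -2.24 ± 0.17, -2.55 ± 0.18 and -2.67 ± 0.19 (SE; largest adjusted p 4.4e-11, limma), and -2.60, -2.93 and -3.07 without that replicate.

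The genes that fell in the isoform 9 line were in part at or above the parental level in isoform 3. PDGFC was at 11.1, 15 and 16 TPM in isoform 3, above the parental mean of 10.7 TPM. Isoform 9 was lower by 2.13 ± 0.12 (SE; adjusted p 8.7e-14, limma). Both comparisons use the same isoform 9 libraries, so a lean towards lower in isoform 9 is built into the next count. Among all genes tested 0.433% were called lower than in isoform 3 and 0.127% higher. Of the 66 genes called lower against the parental cells, 18 were called lower than in isoform 3 and none higher, with a median of -0.70. DHRS2, SPARC and VIM were not among them, and in isoform 3 their values depended on the library: DHRS2 was at 55.4, 5.42 and 5.21 TPM, SPARC at 7.27, 0.326 and 0.426 TPM and VIM at 8.56, 2.56 and 2.13 TPM.

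Fewer genes were higher in isoform 9 than in isoform 3. PLA2G7, an acetylhydrolase of platelet-activating factor, was at 16.8, 20 and 21.3 TPM in isoform 9 and at 8.53, 6.57 and 6.62 TPM in isoform 3, with 11.2, 12.3 and 12.2 TPM in parental cells between them. The difference was 1.31 ± 0.09 (SE; adjusted p 4.5e-12, limma), and 1.42 without isoform 3 replicate 1. ICAM1, an adhesion molecule, was at 5.76, 5.89 and 5.79 TPM in isoform 9, near the parental 5.89, 6.68 and 5.8 TPM, and at 3.99, 1.12 and 1.08 TPM in isoform 3. Its difference of 1.28 ± 0.17 did not pass with only these 2 groups fitted (adjusted p 0.0753, limma). HPD was higher by 1.18 ± 0.11, whereas the calls of VIPR1 (0.84), EREG (0.97) and OAS1 (0.91) were lost without isoform 3 replicate 1.

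The comparison with isoform 12 sets isoform 9 beside a form with the same short C-terminus and another first exon. In it 81 genes (0.54%) were called, 14 higher in isoform 9 (0.0933%) and 67 lower (0.447%). At the adjusted p alone 7.54% of all genes were higher and 9.13% lower. The isoform 12 line had more mRNA from the beta-globin locus: HBE1 was at 14.9, 18.6 and 15.8 TPM, OR51B5 at 11.7, 16 and 12.4 TPM and OR51B4 at 4.28, 7.58 and 6.4 TPM. These values are above the parental ones, while those of isoform 9 are below them, and the log2 differences were -3.77 ± 0.18, -3.76 ± 0.16 and -2.69 ± 0.15 (SE; largest adjusted p 4.0e-14, limma). RERG, a small GTPase, was at 6.35, 7.19 and 8.58 TPM in isoform 12 and at 0.0206, 0 and 0.147 TPM in isoform 9, and IGF2BP3, an RNA-binding protein, at 5.99, 7.33 and 7.91 TPM and at 0.872, 0.935 and 1.01 TPM. The parental level lay between the 2 lines for both genes, at means of 1.1 and 1.63 TPM. VIM was at 18.7, 22.5 and 17.9 TPM in isoform 12 and PDGFC at 20.5, 24.4 and 23.2 TPM, so that isoform 9 was lower by 2.32 ± 0.22 and 2.80 ± 0.12 (SE).

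Among the 14 genes higher in isoform 9 than in isoform 12 were the keratins KRT80 and KRT7 and the caveolin CAV1. KRT80 was at 22.8, 22.6 and 20.5 TPM in isoform 9 and at 8.91, 6.84 and 6.31 TPM in isoform 12, and KRT7 at 4.99, 6.94 and 6.61 TPM and at 1.86, 1.62 and 1.72 TPM. CAV1 was at 333, 355 and 362 TPM and at 173, 161 and 159 TPM. The groups were apart for all 3, by 1.47 ± 0.15, 1.38 ± 0.12 and 1.09 ± 0.07 (SE; largest adjusted p 2.4e-08, limma). KRT80 and KRT7 did not pass against the parental cells (27.9 and 5.6 TPM on average). The counts that follow use the same isoform 9 libraries in both comparisons, so a lean in the direction already called is built in. Among all genes tested 0.0933% were called higher than in isoform 12 and 0.447% lower. Of the 57 genes called higher against the parental cells, 3 were called higher than in isoform 12 and none lower. At the adjusted p alone 20 were higher, 3 were lower and 34 did not pass, with a median of 0.25; S100A14 was higher by 0.83 ± 0.11 and ABCG2 by 0.90 ± 0.11 (SE). ACSL5 differed by -0.01 ± 0.11 and CD58 by -0.31 ± 0.13 (SE), and neither passed (adjusted p 0.98 and 0.10, limma). Of the 66 called lower against the parental cells, 26 were called lower than in isoform 12 and none higher, with a median of -0.93.

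**Figure D5:**
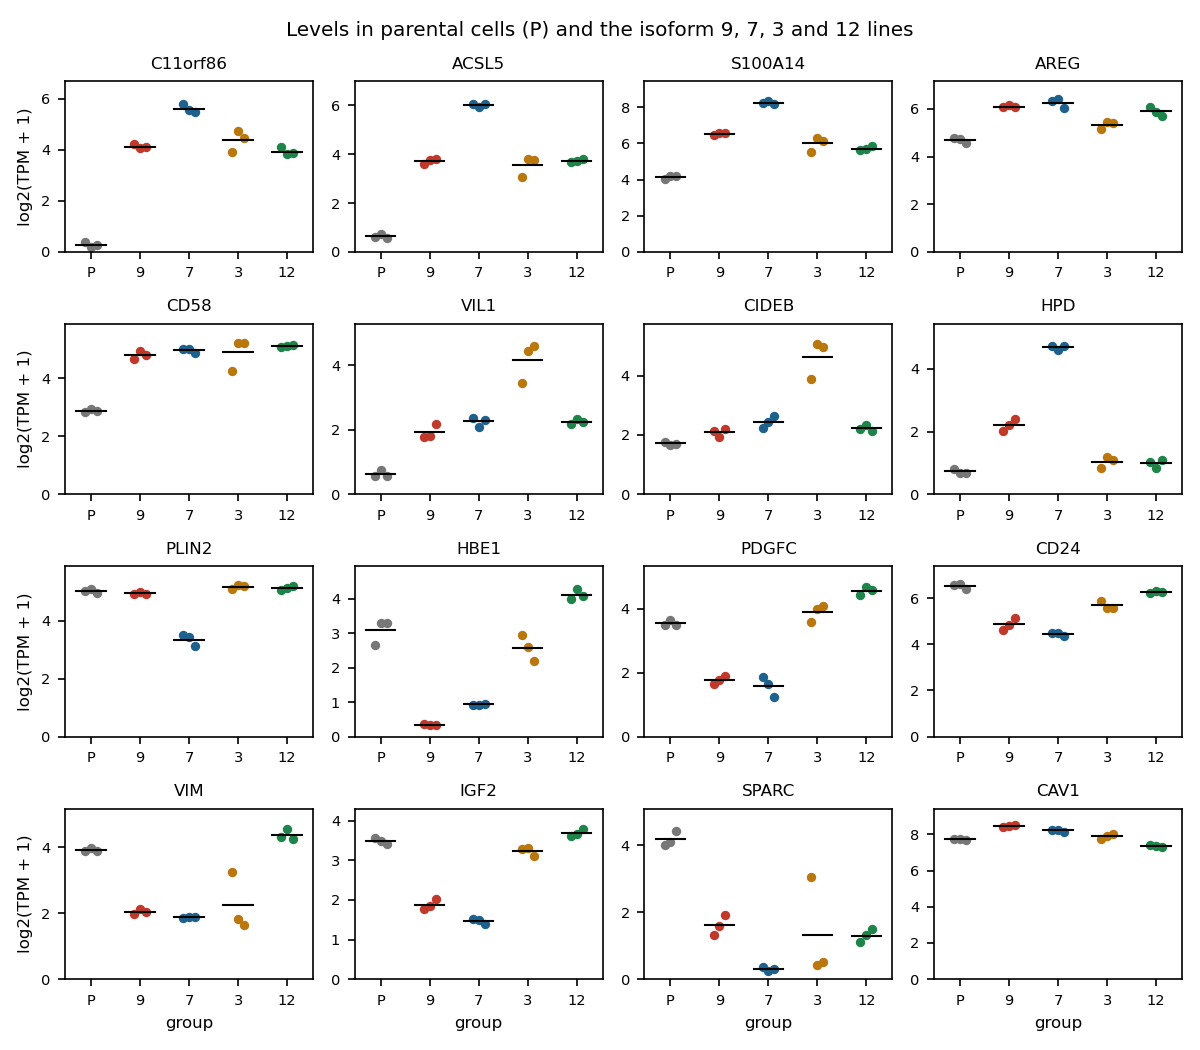
Levels (vertical axis, log2(TPM + 1)) of 16 genes in the parental cells (P) and the lines of isoforms 9, 7, 3 and 12, 1 point per library and a bar at each mean. C11orf86, ACSL5 and S100A14 are highest in isoform 7, HBE1 and PDGFC are low in isoforms 9 and 7, and replicate 1 of isoform 3 stands apart from the other 2 libraries of its line for SPARC and VIM.

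The authors' deposited table for isoform 9 against the parental cells lists 129 genes past an adjusted p of 0.05 and an absolute log2 fold change of 1, 55 higher and 74 lower. Of the 123 genes called here, 109 have an adjusted p under 0.05 there with the same direction and none with the opposite one. Of the rest, 13 have no adjusted p there and 1 has one of 0.05 or above. For C11orf86 the authors' deposited table gives a log2 fold change of 4.00 and for DHRS2 one of -3.50. Some genes called here have a change of less than 1 there, such as RANBP3L (-0.76), PPP1R1B (-0.71) and CAVIN2 (-0.83). The authors' fold changes are not log2(TPM + 1) differences, and how they were computed is not given in the sources used here. RANBP3L, for example, went from a mean of 4.65 TPM to 0.499 TPM. Sizes and counts past a change of 1 are therefore not directly comparable between the 2 sets of results.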

How the data were processed

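The authors deposited 1 table per group with 45446 rows, holding for each library the TPM of a gene. Per the submitters' processing notes the tools include Trimmomatic 0.36, kallisto 0.44.0 and DESeq2 1.22.2 with the build GRCh38.p12; the annotation is not given in the sources used here. TPM scales each library to the same sum. Per the file headers, each line's table adds results of the authors for that line against parental cells, namely a mean normalised count signal, log2 fold changes with errors, a test score and p-values. They entered no fit.

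The 12 HNF4A rows were left out, which left 45434. Differences were fitted on log2(TPM + 1) with limma 3.58.1 in R 4.3.3 (mean-variance trend), on all 39 libraries, which share 1 estimate of the spread, keeping genes that averaged 1 TPM or more. P-values were adjusted over all genes tested (Benjamini-Hochberg). The fit against the parental cells was tried on simulated data with independent noise and planted differences above the minimum for a call. Smaller differences and effects shared within a library were not tried. Alternatives were a pseudocount of 0.1, other filters, median-of-ratios scaling, a replicate block, fits of only the groups compared and leaving out each library. Named genes are the 14 protein-coding genes with the largest called rise and fall, called list members, the 2 most abundant members of lists without a call, and 8 each way in the other comparisons; a few genes that met this rule are not reported here. The members and lists were chosen with earlier results of these data known. Some list genes carry other names in the table, such as COX1 for the mitochondrial gene. Gene types and promoters come from RefSeq (GRCh38.p14) and coordinates from GENCODE on GRCh38.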

Additional observations from a re-analysis of the deposited data

Results flagged for a closer look

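Each result here is a difference between the isoform 9 line and another line that was itself tested (limma). In number these were 63 genes called against isoform 7, 84 against isoform 3 and 81 against isoform 12. Among the named genes, several moved in opposite directions from the parental cells in the 2 lines compared, each past an adjusted p of 0.05. GP1BB, a platelet glycoprotein gene that overlaps its neighbour SEPT5 in readthrough transcripts, fell in isoform 9 and rose in isoform 7, a difference of -1.99 on the log2(TPM + 1) scale. Its fall in isoform 9 only just passed (-0.69, adjusted p 0.0447, limma), from a mean of 2.88 TPM to 1.51 TPM. In the authors' deposited table that fall was -0.35 and did not pass an adjusted p of 0.05. Against isoform 3, PDGFC (-2.13) fell in isoform 9 and rose in isoform 3, and PLA2G7 (1.31) did the reverse. The rise of PDGFC in isoform 3 was small (0.35, adjusted p 0.0256, limma). Against isoform 12, HBE1 (-3.77), OR51B5 (-3.76), OR51B4 (-2.69), RERG (-2.98), PDGFC (-2.80) and IGF2BP3 (-2.05) fell in isoform 9 and rose in isoform 12. CAV1 (1.09) and GPRC5A (1.20) rose in isoform 9 and fell in isoform 12, the rise of GPRC5A being small (0.21, adjusted p 0.0375, limma).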

How the results depend on the processing

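With a pseudocount of 0.1 TPM the numbers of called genes were 253 against the parental cells, 133 against isoform 7, 156 against isoform 3 and 188 against isoform 12; the share of higher calls against isoform 7 then rose from 19% to 30.1%. With genes of at least 5 TPM they were 74, 35, 42 and 44, and with no minimum difference 3404, 2317, 2812 and 2501. Leaving out 1 library at a time gave 121 to 138, 60 to 82, 69 to 110 and 82 to 95, and 21 to 34 list genes, the highest of these without isoform 9 replicate 1, when 12 mitochondrial mRNAs were added to the calls. Of the named genes called, 42 of 47 kept their call against the parental cells under every alternative run, 13 of 17 against isoform 7, 12 of 20 against isoform 3 and 17 of 20 against isoform 12; none changed direction. Same-numbered libraries deviated together weakly. Deviations of same-numbered isoform 9 and parental libraries correlated at 0.038 to 0.11. Those with isoforms 7, 3 and 12 correlated at 0.022 to 0.184, 0.075 to 0.153 and 0.0082 to 0.233. Differently numbered libraries correlated at -0.095 to 0.010 with the parental cells and at -0.185 to 0.099 with isoform 7. With isoforms 3 and 12 they correlated at -0.111 to 0.033 and -0.226 to 0.0088. Deviations were taken from each group's own mean. Part of the contrast between same-numbered and differently numbered libraries is therefore built in. What the numbers stand for was not tested. Each isoform 9 library correlated best with its own number among the parental, isoform 3 and isoform 12 libraries, and 1 of 3 among those of isoform 7. With the numbers as a replicate block, and isoforms 4 and 5 left out since their libraries carry none, 123, 64, 82 and 83 genes were called, against 122, 64, 80 and 83 without the block on the same libraries, an alternative chosen after the data were seen. With the block 10 of 15 Wnt targets, 10 of 24 p53 targets and 6 of 25 S phase genes fell. Depth is unknown from TPM, so differences of genes near 0 TPM carry an unknown counting error.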
